A study of Mus musculus with 12 samples.

Results

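The array of the hippocampus taken 30 min after scopolamine was set against the 4 other arrays of ICR hippocampus, all taken 14 days after an injection into the brain. A gene was kept when its log2 signal with scopolamine lay outside the range of all 4 others by at least 0.58, which is 1.49-fold, and when the scanner software marked it as well above background on the brighter side. Of the 20877 genes with a symbol on the array, 288 (1.38%) met this rule. Signal was higher with scopolamine for 246 of them (1.18% of all genes) and lower for 42 (0.201%). Because these values chose the genes, they are given as a description without a test.

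The mice were 7-week-old males of the ICR stock, which is outbred and carried no transgene. Scopolamine was given at 1 mg/kg into the peritoneum, without brain surgery. The other mice received an injection into the cerebral ventricle, either of aggregated Aβ1–42 peptide (5 and 10 μM) or of streptozotocin, dosed at 2.5 mg/kg for 1 array and 3 mg/kg for the other. Each array carried hippocampal RNA pooled from 3 animals, and each group is 1 array, so the spread among animals is unknown. Agent, route, surgery, time after injection, and the alleles carried by each pool cannot be told apart in any value that follows. Arrays of untreated ICR mice were not analysed here.

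Scopolamine blocks the muscarinic acetylcholine receptors, which couple to G proteins and modulate excitability and plasticity in the hippocampus, and it is widely used to impair memory in rodents. Immediate early genes are transcribed within minutes of neuronal activity, without new protein synthesis. Many of them are switched on by CREB, a transcription factor that binds the cAMP response element. Streptozotocin in the ventricle and aggregated Aβ are used as slower models of impaired insulin signalling and of amyloid toxicity.

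Of 16 neuronal markers of the hippocampus, 15 were measured (well above background on at least 1 of the 5 arrays). Neurod6, a transcription factor of excitatory forebrain neurons, had a log2 signal of 12.42 with scopolamine and 12.28 to 12.73 on the other arrays. Prox1, a factor of dentate granule cells, read 7.93 with scopolamine and 8.04 and 8.21 with Aβ. These markers were not set against the cortex arrays. Between 63.5% and 67.5% of probes were well above background on these 5 arrays, and no spot was saturated. The median standard deviation of a gene over the 4 other arrays was 0.14 on the log2 scale, for the genes measured on all 5 arrays.

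The same rule was applied to each ICR array in turn, since it finds genes on any array. Above the others it set apart 246 genes with scopolamine (1.18%), 336 with 5 μM Aβ (1.61%), 230 with 10 μM Aβ (1.1%), 214 with 2.5 mg/kg streptozotocin (1.03%), and 171 with 3 mg/kg streptozotocin (0.819%). Below the others it set apart 42 genes with scopolamine (0.201%), 62 with 5 μM Aβ (0.297%), 68 with 10 μM Aβ (0.326%), 313 with 2.5 mg/kg streptozotocin (1.5%), and 39 with 3 mg/kg streptozotocin (0.187%). In all, this gave 288 genes with scopolamine and between 210 and 527 on each 14-day array. The scopolamine array thus lay within the range of the 14-day arrays in the number of genes set apart. Most of its genes lay above the others, and the array of 2.5 mg/kg streptozotocin was the one with more genes below than above.

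**Figure D1:**
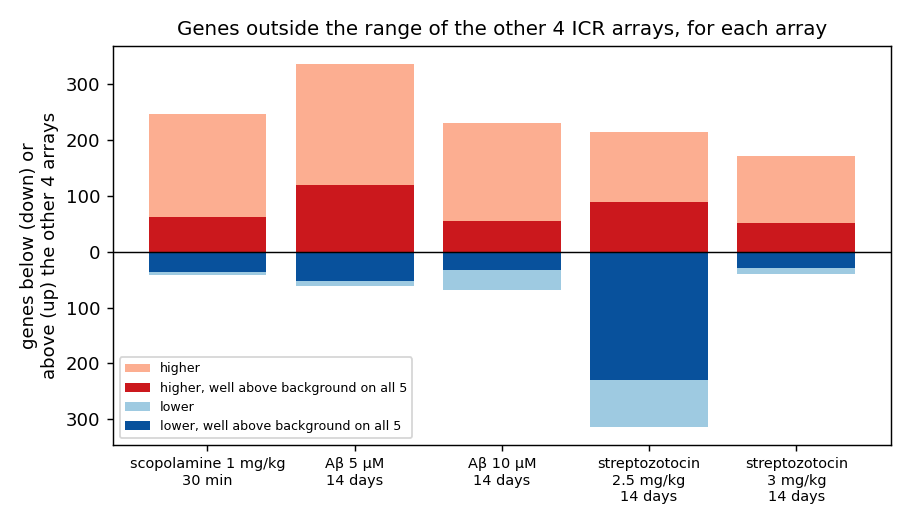
Number of genes outside the range of the other 4 ICR arrays by at least 0.58 log2, for each array in turn. Bars above 0 count genes higher on that array and bars below 0 genes lower, and the dark portion counts genes well above background on all 5 arrays. The scopolamine array has 246 higher and 42 lower genes, of which 62 and 36 are dark.

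The higher and lower genes differed in how well the other side was measured. Of the 246 higher genes, 133 were not well above background on any of the 4 other arrays, and 62 were well above background on all 5. Of the 42 lower genes, 36 were measured on all 5 arrays and 6 were not well above background with scopolamine. Among the 14262 genes measured on all 5 arrays, these 62 and 36 are 0.435% and 0.252%. The distance outside the range had a median of 1.10 for the higher genes (0.58 to 4.67) and of 0.66 for the lower genes (0.58 to 2.43). For the 62 higher genes measured on all 5 arrays it was 0.82, and 50 of these distances exceeded 2 times the scanner software's own error, which covers the spot but not the animals. For the lower genes measured on all 5 arrays, 24 of 36 did so.

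The members closest to the threshold were Ccdc121 (0.58) and Timd2 (0.59) on the higher side and Efnb2 (0.58) and Gja5 (0.58) on the lower side. Just outside it lay Cyp4f39 (0.576) and Gdf5 (0.569) above the range, and Efna1 (0.562) and Ly6a (0.555) below it. Of the members, 185 higher and 30 lower genes were read by 1 probe. All probes lay outside the range the same way for 34 of the 61 higher genes with 2 or more probes and for 5 of the 12 such lower genes. In the values of the deposited matrix, on their own scale, the split of 85.4% higher genes became 27.0%, with 37 higher and 100 lower genes. There the median of all genes lay 0.22 lower on the scopolamine array than on the others. After centring each array on its median gene, which was chosen after seeing the data, the split was 85.1%. The 42 lower genes became 86 without the array of 5 μM Aβ, 81 without 10 μM Aβ, 164 without 2.5 mg/kg streptozotocin, and 65 without 3 mg/kg, since fewer arrays give a narrower range.

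**Figure D2:**
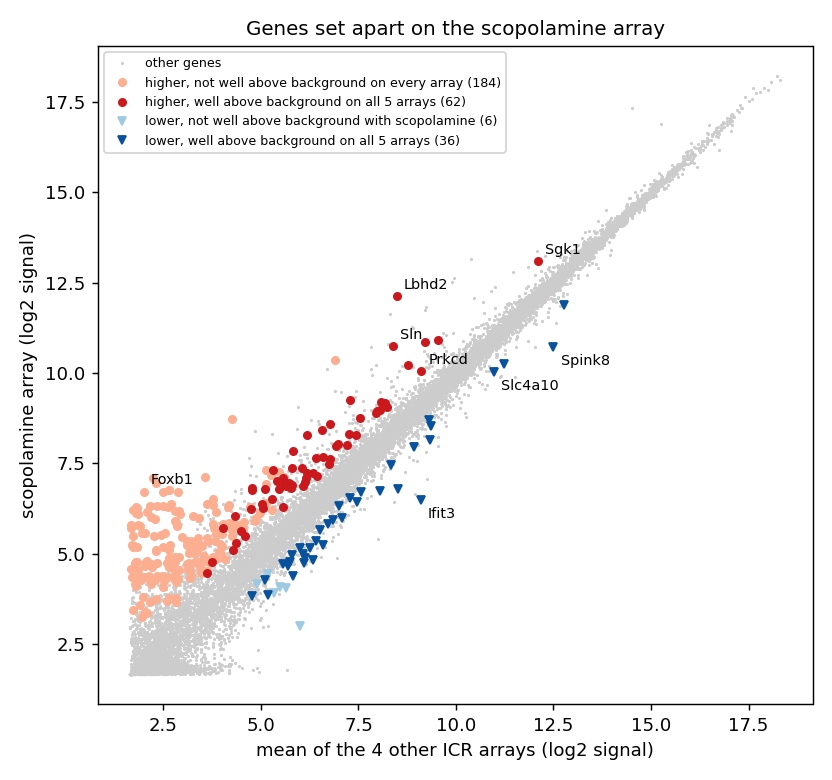
Log2 signal of each gene on the scopolamine array (vertical axis) against the mean of the 4 other ICR arrays (horizontal axis). Grey points are the other genes, circles the 246 higher and triangles the 42 lower members, dark where the gene was well above background on all 5 arrays. Most pale circles lie at the dim end, and Lbhd2, Sgk1, Spink8, and Slc4a10 are bright genes set apart.

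Among genes of signalling, Sgk1 and Prkcd were set apart at a high signal. Sgk1 encodes a serine/threonine kinase that is induced by glucocorticoids and regulates ion channels and transporters. Its log2 signal was 13.09 with scopolamine, 12.47 and 12.38 with 5 and 10 μM Aβ, and 11.60 and 12.00 with 2.5 and 3 mg/kg streptozotocin. The scopolamine array was the highest, both Aβ arrays came next, and both streptozotocin arrays were lowest. Sgk1 lay 0.98 above the mean of the others and 0.63 above the nearest of them, with a scanner error of 0.20.

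Prkcd encodes protein kinase C delta, which responds to diacylglycerol, the messenger that muscarinic receptors of the Gq type produce. Its log2 signal was 10.05 with scopolamine against 9.25, 8.94, 9.24, and 9.03 with the lower and higher dose of Aβ and of streptozotocin. The 4 other arrays lay close together, and both probes of Prkcd placed scopolamine above all of them, by 0.83 for the brighter probe and 0.77 for the other. Prkcd is also a thalamic gene and stands in a list of thalamus and habenula markers. Scopolamine was highest for 2 of the 9 measured genes of that list. The log2 of the summed signal of all 9 was 11.75 with scopolamine and 11.59 to 12.72 on the others. The brightest genes weigh most in such a sum. Tcf7l2, a thalamic transcription factor, was lowest with scopolamine, at 6.03 against 6.33 to 6.63.

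The glucocorticoid-responsive genes were followed as a list because Sgk1 is one of them. Of its 22 measured genes, 1 met the rule (1.38% of all genes did), 6 were highest of the 5 arrays with scopolamine (27.3%, against 20.0% of all measured genes), and 7 were lowest (31.8%, against 17.5%). The median difference from the mean of the others was 0.02, and that of all measured genes was -0.0017. Fkbp5, a chaperone of the glucocorticoid receptor, was lowest with scopolamine, at a log2 signal of 11.61 against 11.76 to 11.87. Ddit4, a stress-induced inhibitor of mTOR signalling, was lowest too, at 13.01 against 13.40 to 13.85. Arrdc2 and Nfkbia, also on the list, were highest with scopolamine, at 10.57 against 9.99 to 10.16 and at 12.59 against 11.75 to 12.37. Sgk1 and Fkbp5, both known targets of the glucocorticoid receptor, lay on opposite sides of the other arrays.

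The promoter of Sgk1 is shown because it holds the sequence of a palindromic glucocorticoid response element, the letters AGAACA and TGTTCT with 3 bases between them, printed in capitals. The stretch lies on the plus strand of GRCm38.p6 at chr10:21993658-21993757, upstream of 1 of the gene's start sites in RefSeq.
Sgk1: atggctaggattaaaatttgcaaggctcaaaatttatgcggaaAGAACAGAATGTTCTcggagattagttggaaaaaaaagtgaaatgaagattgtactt
On both strands, this pattern was found in the promoters of 3 of the 27025 genes in the RefSeq table (0.0111%), counting all starts of a gene, from 250 bases before each start to 50 after it. Of the 191 higher members with a promoter in the table, 1 held it, and of the 32 lower members none did. A match describes the letters in this window and says nothing about binding.

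Muscarinic receptors, the targets of scopolamine, did not meet the rule. The log2 signal of Chrm1, the main receptor of pyramidal cells, was 9.51 with scopolamine and 9.41, 9.60, 9.78, and 9.87 on the arrays of Aβ and streptozotocin. Chrm3, coupled to Gq like Chrm1, read 8.90 against 8.37, 8.61, 9.31, and 8.94. Both lay inside the range of the others. Chrm2, the Gi-coupled autoreceptor of cholinergic terminals, was highest with scopolamine at 5.87 against 5.14, 5.75, 5.62, and 5.58, a distance of 0.12. The scanner error of its difference from the lowest array, that of 5 μM Aβ, was 0.28. Chrm4 read 5.09 against 4.85 to 5.53, and Chrm5 was not well above background on any of the 5 arrays.

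Among 16 other cholinergic genes measured, Prima1 met the rule, as 1.18% of all genes did on the higher side. Chrna10, a nicotinic receptor subunit that the list did not hold, was also a higher member, at 5.54 against 3.54 to 4.07, which is at least 2.16-fold because it was not well above background on the other arrays. Prima1 encodes the membrane anchor that holds acetylcholinesterase at brain synapses. Its log2 signal was 8.88 with scopolamine, 8.10 and 7.76 with 5 and 10 μM Aβ, and 8.24 and 7.75 with 2.5 and 3 mg/kg streptozotocin. The 4 others overlapped between agents and all lay below scopolamine, by 0.64 at the least. Ache, the esterase itself, read 9.32 with scopolamine and 9.36, 9.20, 9.01, and 9.52 on the others, so that scopolamine lay inside the range. Chat, which makes acetylcholine, read 6.28 against 6.11 to 7.51. The median difference of the 16 genes was -0.01, and that of 26 genes of muscarinic signalling downstream of the receptors was -0.05, with 8 of the 26 above 0 and none that met the rule.

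Of 40 immediate early genes, 39 were measured and none met the rule, against 1.38% of all genes. Their median difference from the mean of the 4 other arrays was 0.22, and 30 of 39 lay above 0. Scopolamine was the highest of the 5 arrays for 18 (46.2%) and the lowest for 2 (5.13%), whereas over all 16226 measured genes it was highest for 20.0% and lowest for 17.5%. Relative to the mean of the 5 arrays, the list median was 0.17 with scopolamine and 0.12 with 2.5 mg/kg streptozotocin. It was -0.09 and -0.07 with 5 and 10 μM Aβ and -0.15 with 3 mg/kg streptozotocin. The list thus also lay high on the array of 2.5 mg/kg streptozotocin. Each array gives 1 value per gene and genes of this list move together, so the 39 genes are not replicates. In the deposited matrix the median was -0.10, where that of all genes was -0.22 and 27 of the 39 lay above the median of all genes.

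Fos, a subunit of the transcription factor AP-1 and a common marker of recent neuronal activity, had a log2 signal of 9.57 with scopolamine. It read 8.24 and 8.30 with 5 and 10 μM Aβ and 9.29 and 8.62 with 2.5 and 3 mg/kg streptozotocin. Scopolamine was highest, followed by the lower dose of streptozotocin, from which it differed by 0.28. The scanner error of its difference from the lowest array, that of 5 μM Aβ, was 0.21. Npas4, a transcription factor induced by calcium entry that adjusts inhibitory synapses, read 10.79 with scopolamine, 9.02 and 9.23 with Aβ, and 10.90 and 9.40 with streptozotocin. Here the array of 2.5 mg/kg streptozotocin was highest, so scopolamine and that array stood apart from the other 3.

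Arc, which controls the uptake of AMPA receptors, read 13.37 with scopolamine and 12.63, 12.71, 14.24, and 13.04 on the others. Nr4a1, an orphan nuclear receptor, read 13.76 against 13.23, 13.17, 14.07, and 13.29. Both were highest with 2.5 mg/kg streptozotocin and second with scopolamine. Egr1, a zinc finger factor with a high baseline in the hippocampus, read 12.63 against 12.40, 12.50, 13.03, and 12.57, and Junb read 6.87 against 6.53, 6.66, 6.77, and 6.46. Egr1 equalled the mean of the others to within 0.01, and Junb was highest with scopolamine by 0.10.

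The immediate early genes farthest above the range were Gadd45g, Ptgs2, and Egr2. Gadd45g, a stress sensor of the growth arrest family, read 13.29 with scopolamine against 12.79, 12.81, 12.63, and 12.52, a distance of 0.48. The scanner error of its difference from the lowest array, that of 3 mg/kg streptozotocin, was 0.20. Ptgs2, the inducible cyclooxygenase of neurons, read 8.59 against 7.82, 8.18, 7.91, and 7.86, and Egr2, a zinc finger factor, read 8.82 against 7.55, 8.17, 8.46, and 7.86. In the opposite direction, Ier5, an early response gene, was lowest with scopolamine at 6.06 against 7.76 and 7.997 with Aβ and 6.81 and 6.34 with streptozotocin. Jun, the partner of Fos in AP-1, read 13.22 against 13.44 to 13.49, also the lowest, while Fosb was the highest at 9.44 against 8.60 to 9.14. Of 14 late activity-regulated genes, which follow the early ones by hours, none met the rule, and their median difference was 0.06.

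**Figure D3:**
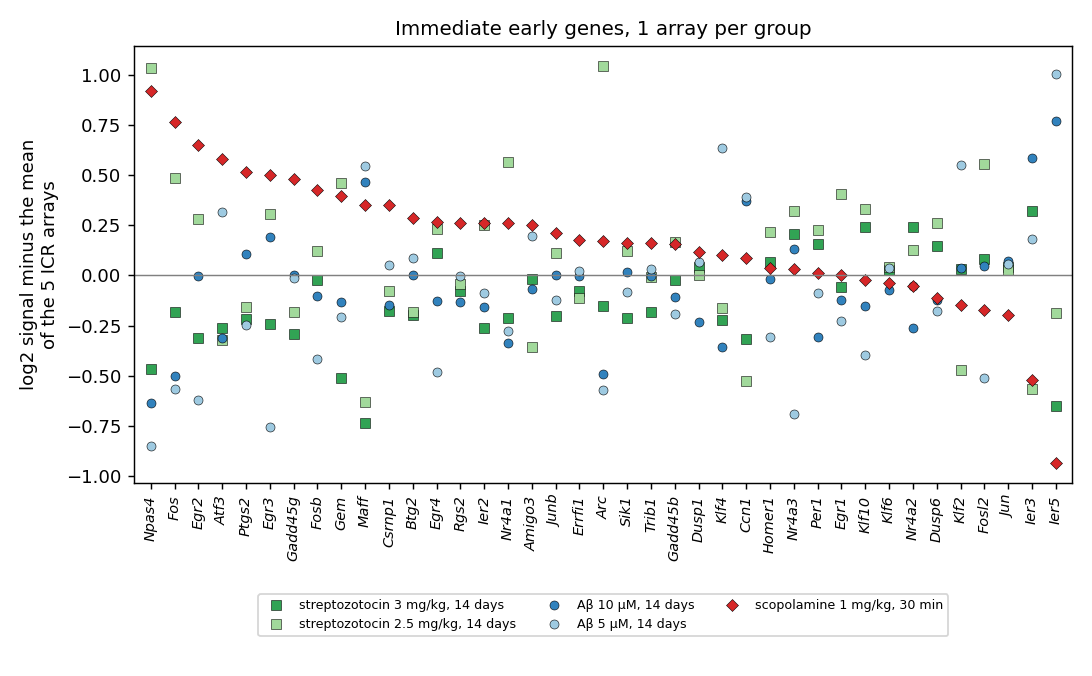
Log2 signal of the 39 measured immediate early genes on each ICR array, minus the mean of the 5 arrays, ordered by the difference between scopolamine and the mean of the others. Each point is 1 array. Scopolamine (red diamonds) is highest for 18 genes such as Fos and Egr2, while 2.5 mg/kg streptozotocin (pale squares) is highest for Npas4, Arc, and Nr4a1, and Ier5 is lowest with scopolamine.

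Promoters of Fos and Npas4 are shown because both genes rank high with scopolamine and both hold the core letters of the cAMP response element, TGACGT or its complement ACGTCA, in capitals. The Fos stretch is on the plus strand of GRCm38.p6 at chr12:85473777-85473876, with the core 60 bases before the start site. The Npas4 stretch is on the minus strand at chr19:4990094-4990193, with cores 174 and 163 bases before the start site.
Fos: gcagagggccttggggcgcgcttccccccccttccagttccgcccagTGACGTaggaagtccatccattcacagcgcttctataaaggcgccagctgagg
Npas4: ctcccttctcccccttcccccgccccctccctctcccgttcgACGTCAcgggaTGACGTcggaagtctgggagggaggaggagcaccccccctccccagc
The core was found on either strand in 15 of the 31 immediate early genes with a promoter in the table (48.4%), against 8.37% of all 27025 genes. Among the members it was found in 11 of 191 higher genes (5.76%) and in 1 of 32 lower genes (3.12%). The full element TGACGTCA, which contains the core, was found in 4 of the 31 immediate early genes (12.9%), in 2.03% of all genes, in 1 higher member, and in no lower member. Egr2 and Ptgs2 were among the genes that held the core. So were Ccn1, Homer1, Maff, Nr4a3, and Per1, for which scopolamine lay inside the range of the other arrays. Gadd45g, the immediate early gene farthest above the range, did not hold it. Whether the core goes with the scopolamine value was not tested.

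Among the other higher genes, Lbhd2, a little characterised gene with the largest distance of the higher members measured on all 5 arrays, read 12.14 with scopolamine against 9.37, 7.61, 8.09, and 8.88. It lay 2.77 above the nearest array, with a scanner error of 0.20, while the 4 others spanned a wide range among themselves. C3, the central component of complement, read 9.07 against 8.33, 8.16, 8.38, and 8.02, and both of its probes were highest with scopolamine. The 18 measured genes of reactive astrocytes, a list that holds C3, had a median difference of -0.14. Of these, Lcn2 read 6.32 with scopolamine against 8.65, 7.50, 6.51, and 6.69 and did not meet the rule. C3 met the rule under 8 of 13 alternative settings, and Prkcd and Sgk1 under 12. These counts include 4 settings that each leave out an array other than scopolamine. No member can fail those, because the range can only narrow.

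Kcnj8, the pore of an ATP-sensitive potassium channel of pericytes, read 6.94 with scopolamine and 6.09, 6.09, 5.87, and 4.96 on the others. Its partner subunit Abcc9, on the same list of mural markers, read 7.84 against 7.25 to 7.94 and lay inside the range. Acta2, smooth muscle actin, read 9.90 with scopolamine, 12.65 and 12.66 with Aβ, and 9.79 and 10.95 with streptozotocin. The log2 of the summed signal of 9 mural genes was 13.22 against 14.81, 14.70, 13.02, and 13.51. Drd2, the dopamine receptor of striatal neurons, read 4.86 against 3.95 to 4.19, but it was not well above background on the other arrays, which makes it at least 1.36-fold higher. The log2 of the summed signal of 9 striatal markers was 14.12 with scopolamine and 13.91 to 14.17 on the others.

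**Figure D4:**
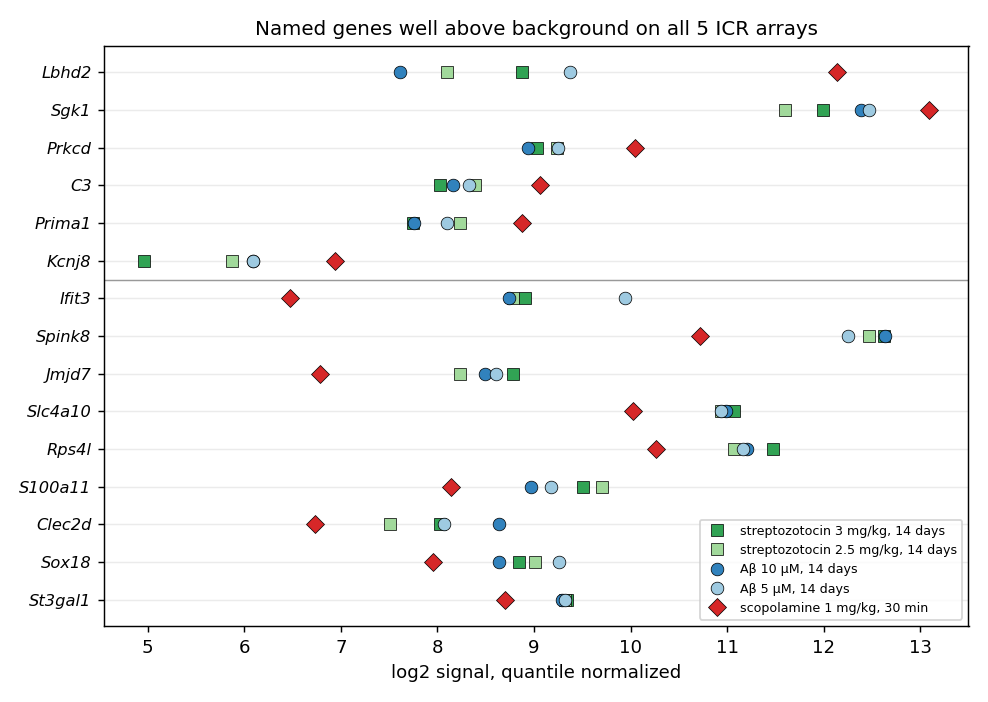
Log2 signal of 15 named members well above background on all 5 ICR arrays, with 1 point per array. The 6 genes above the grey line are higher with scopolamine (red diamonds) and the 9 below it are lower. Lbhd2 is the gene with the widest gap, and the 4 other arrays nearly coincide for Slc4a10 and St3gal1.

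Among lower genes measured on all 5 arrays, the largest distance was that of Ifit3, a protein induced by interferon that restrains viral translation. Its log2 signal was 6.48 with scopolamine, 9.94 and 8.74 with 5 and 10 μM Aβ, and 8.78 and 8.91 with 2.5 and 3 mg/kg streptozotocin. Scopolamine lay 2.26 below the lowest of these. Spink8, a serine protease inhibitor, read 10.72 against 12.26, 12.64, 12.47, and 12.63. Jmjd7, a lysyl hydroxylase, read 6.78 against 8.60, 8.49, 8.23, and 8.78. For these 3 genes the arrays of both agents overlapped and scopolamine stood alone, by 1.45 or more.

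Slc4a10 encodes a sodium-dependent bicarbonate transporter of neurons and the choroid plexus. It read 10.03 with scopolamine and 10.93, 10.99, 10.93, and 11.07 on the others, whose standard deviation was 0.07. Rps4l, annotated as a transcribed pseudogene of a ribosomal protein, read 10.26 against 11.17, 11.21, 11.07, and 11.48. St3gal1, a sialyltransferase, read 8.70 against 9.32, 9.29, 9.32, and 9.34, with both probes below the range. These are lower values on arrays where the 4 others differed little. Ifit3, Spink8, Jmjd7, Slc4a10, and Rps4l met the rule under each of 13 alternative settings, whereas Morc4, Efnb2, and Gja5 met it under 4, 5, and 6 of them. All these counts include the 4 settings that each leave out an array other than scopolamine, which no member can fail. The 4 of Morc4 are those settings alone.

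Among vascular and immune genes, Sox18, a transcription factor of endothelial cells, read 7.96 against 9.26, 8.64, 9.01, and 8.84. Of the 11 endothelial markers, 5 were lowest with scopolamine, and the median difference of the 11 was -0.15. The log2 of their summed signal was 14.72 with scopolamine and 14.63 to 15.22 on the others. Fewer cells of a type and less RNA per cell cannot be told apart in such tissue. S100a11, a calcium-binding protein, read 8.14 against 9.18, 8.97, 9.70, and 9.50. Clec2d, a ligand of natural killer cell receptors, read 6.73 against 8.07, 8.64, 7.51, and 8.02. The remaining named lower genes lay between 0.58 and 0.87 below the range, and they were Gml2, Hic1, Tll1, Dmp1, Tmco5, Morc4, Gja5, and Efnb2. For Hic1, Tmco5, Morc4, Gja5, and Efnb2, 1 of 2 probes was not well above background on at least 4 of the 5 arrays. The Hic1 probe measured on all 5 arrays lay inside the range, at 8.57 with scopolamine against 8.39 to 9.74. Both probes of Tll1 were measured on all 5 arrays, and 1 of them lay inside the range, at 5.22 against 4.97 to 5.57.

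The 6 lower genes not well above background with scopolamine have only a bound, taken in the same way as for the dim higher genes described next. The transcript 6720483E21Rik read 2.98 with scopolamine and 5.41 to 6.23 on the others, which is at least 3.80-fold lower. Hbq1b, a globin gene, was at least 2.99-fold lower, Klk1b24, a kallikrein, at least 2.64-fold, and 4930567H12Rik at least 2.37-fold. Slc38a4, an imprinted amino acid transporter, and Dio3os, an RNA antisense to the deiodinase gene Dio3, were each at least 1.69-fold lower.

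Most of the higher genes named by the rule for large distances were not well above background on the other arrays. Foxb1, a forkhead factor of the developing brain, read 6.71 with scopolamine and 1.95 to 2.05 on the others. Since it was not well above background there, it is described as at least 4.93-fold higher. This bound takes for each other array the dimmest probe that still passed the background flag, or the gene's own signal where that was higher. Every such bound in this text rests on that lowest passing level. A stricter level would make the bounds smaller or leave them unchanged, so they hold only under this choice. Parpbp, which restrains recombination, was at least 6.52-fold higher by the same measure, Tcf21, a factor of mesenchymal development, at least 5.86-fold, and Orm1, an acute phase protein, at least 3.88-fold. The other named genes of this kind were Xkr7, Sult3a2, Dsg1c, Trim50, H60c, Sfta3-ps, and Tead4, with bounds from 3.47 to 5.06. Over all 133 such genes, 103 had a bound over 1-fold, with a median of 1.76, and 30 had none.

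Several higher genes with 2 or more probes rested mainly on a probe that was dim on the other arrays. For Pole, the catalytic subunit of DNA polymerase epsilon, the probe measured on all 5 arrays read 7.31 with scopolamine against 6.79 to 7.01, and the other read 4.75 against 1.75 to 1.80. Zfp618 had the same kind of difference between probes. Pax9 and Olfr205 were each well above background by 1 probe and with scopolamine alone, and had no bound over 1-fold. Eomes, Ces2e, and Samd3 were well above background on 3 or fewer of the other arrays. Chemosensory receptors, which are not known for a role in the hippocampus, made up 9.76% of the higher and 9.52% of the lower members and 6.60% of all genes. Genes known by a clone or model name made up 12.2% and 11.9%, against 7.48% of all.

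The place of these probes on the array was uneven. In 10 equal bands of rows, which held 3671 to 4073 probes each, the 135 probes of the 133 dim genes numbered 2, 2, 12, 33, 14, 9, 11, 22, 22, and 8 from the first band to the last. The lower quartile of the processed signal of all probes was, in the same order, 4.94, 4.76, 7.70, 8.75, 4.24, 5.66, 5.77, 11.8, 11.8, and 5.01. The fourth, eighth, and ninth bands were high in both, whereas the fifth had the lowest quartile and 14 probes. The 82 probes of higher genes measured on all 5 arrays numbered 17 in the fourth band and between 1 and 13 in the others. The part of place in these calls was not tested.

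**Figure D5:**
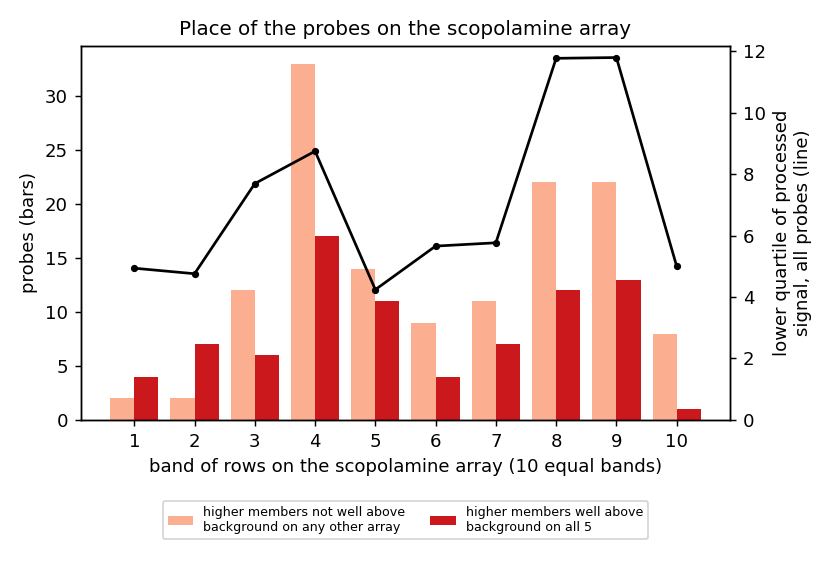
Probes of higher members in 10 equal bands of rows of the scopolamine array (bars, left axis), pale for genes dim on every other array and dark for genes measured on all 5, with the lower quartile of the processed signal of all probes (line, right axis). The bars reach 33 in the fourth band, and the line is highest, at 11.8, in the eighth and ninth.

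Markers of tissue beside the hippocampus differed between the 14-day arrays. Ttr, the transthyretin of the choroid plexus, read 17.33 with scopolamine, 17.35 and 17.38 with Aβ, and 11.27 and 12.06 with streptozotocin. The log2 of the summed signal of the 14 choroid plexus markers was 17.58 with scopolamine and 17.57 and 17.64 with Aβ. With streptozotocin it was 11.88 and 12.54, so their median difference of 2.58 comes with streptozotocin arrays that lie low. None of the 14 met the rule. Ependymal markers followed a like order, with 13.17, 12.82, 12.76, 11.48, and 11.55 on the same measure. Scopolamine was the highest for 9 of these 10, and Ak7, an adenylate kinase of motile cilia, met the rule at 4.73 against 1.93 to 4.05, which is at least 1.22-fold. All 10 oligodendrocyte markers lay above the mean of the others, with a median difference of 0.38, and none met the rule. Relative to the mean of the 5 arrays, their median was 0.31 with scopolamine and a like 0.30 with 5 μM Aβ. It was -0.49 with 10 μM Aβ and 0.09 and -0.26 with 2.5 and 3 mg/kg streptozotocin. Meningeal fibroblast markers had a median difference of -0.66, with none highest or lowest.

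No other list held more than the members named above. The median difference was -0.11 for 19 circadian clock genes, 0.0031 for 13 heat shock genes, 0.05 for 15 fasting and hypoxia genes, 0.0007 for 19 microglial markers, and -0.23 for 6 red blood cell markers. It was -0.06 for 8 astrocyte markers, -0.10 for hippocampal neuron markers, -0.13 for 11 interneuron markers, 0.05 for striatal markers, -0.43 for thalamus and habenula markers, and 0.09 for 8 pituitary and hypothalamus markers. Of the 15 measured hippocampal neuron markers, scopolamine was highest for 2 and lowest for 2. Wfs1, a marker of CA1 neurons, was among the lowest. It read 13.26 with scopolamine, 13.35 and 13.62 with Aβ, and 14.78 and 14.09 with streptozotocin. Fibcd1, on the same list, was among the highest, at 9.41 against 8.13 to 9.28, and Pou3f1 lay inside the range.

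The 7 arrays of C57BL/6 mice were 4 of cortex, at 1.5, 4, 17, and 22 months of age, and 3 of hippocampus, from mice with a mutant human NCSTN transgene (10 months), a human MAPT transgene (12 months), or the 5xFAD transgenes (6 months). They were used only to place the members in a wider range, since strain, age, and region differ. For 194 of the 246 higher and 25 of the 42 lower genes, the scopolamine array also lay outside the range of these 7, in the same direction. The members were chosen for an extreme scopolamine value, which favours this count, and nothing is read from it. The other members lay inside that range or beyond its other end. Tmem14c, a mitochondrial membrane protein of heme synthesis, read 10.22 with scopolamine, 8.63 to 8.97 on the other ICR arrays, and 10.90 to 11.36 on the C57BL/6 arrays. Etnppl, a phospholyase of astrocytes, read 9.24, 6.63 to 7.93, and 9.25 to 11.36 in the same order. For both genes, named here after their values were seen, the scopolamine array was nearer to the C57BL/6 range than the other ICR arrays were.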

How the data were processed

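The authors deposited 1 scanner file per 1-colour Agilent Mouse Whole Genome 44K array, holding the intensity of each spot, not normalized between arrays, and a matrix of processed intensity values. RNA had been pooled from 3 animals per array, with an RNA integrity number above 7. From the deposited intensity, log2 of the background-corrected processed signal was taken, outlier spots were left out, spots of a probe were averaged, and the 12 arrays were quantile normalized. Accessions without versions were matched to RefSeq (GRCm38.p6), which left 27486 of 39429 probes (69.7%) with 1 symbol, and probes of a gene were averaged. The 26 probes with only outlier spots on an ICR array were not used. The number of arrays limits the precision, and no statistical test between groups was run.

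Members and gene lists were chosen with earlier results of these data known. The text names the 12 higher and 12 lower members with the largest distance and a foreground at least 4 times the local background, leaving out clone names, the 8 of each with 2 or more probes all outside the range (5 lower genes qualified), every member on a list, and Fos, Egr1, Arc, Npas4, Junb, Nr4a1, Chrm1 to Chrm5, and Ache. Of the genes this rule gives, 1 is not reported here. Other genes are named within their list or after their values were seen. The 24 lists cover activity, cholinergic, hormone, clock, stress, and cell type genes. The scanner error of a distance combines the software's errors of both spots. Normexp was run on the median signal of the pixels, because the scanner files as read here held no mean signal. Alternatives are given in the closing section. The margin of the rule was tried on simulated data in which every gene passed the background flag, so the flag was not tested. Python 3.11.15, numpy 2.4.6, pandas 2.3.3, scipy 1.17.1, matplotlib 3.10.9, R 4.3.3, and limma 3.58.1 were used.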

Additional observations from a re-analysis of the deposited data

How the results depend on the processing

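Of the 246 genes higher with scopolamine and the 42 genes lower with scopolamine, 58 and 8 remained with normexp background correction, and the counts were 37 and 100 in the deposited matrix, 74 and 13 in that matrix centred on its median gene, and 81 and 9 on the foreground pixel median, the last 2 chosen after seeing the data. All 246 and 42 genes lay outside the range on the pixel median too, and 80 and 9 of them by 0.58. Requiring probes well above background on all 5 arrays gave 46 higher genes, and a flag on at least 1 other array gave 101 lower genes. A margin of 0.32 gave 483 and 184 genes, and a margin of 1 gave 136 and 5. Without 1 of the 4 other arrays in turn, which can only widen the count, higher genes numbered 291 to 357 and lower genes 65 to 164, namely 86 without 5 μM Aβ, 81 without 10 μM Aβ, 164 without 2.5 mg/kg streptozotocin, and 65 without 3 mg/kg. Scaling to the 75th percentile, quantile normalization of the 5 ICR arrays, the 1.4-fold filter, the brightest probe, and genes with every probe outside kept both counts within 1.5 times. Together, 33 higher and 8 lower genes met the rule under all 5 alternatives of scaling, background, matrix, and probe. The immediate early median was -0.10 in the deposited matrix, where all genes had a median of -0.22, and lay between 0.14 and 0.27 under each of the other alternatives, with 0.20 to 0.26 when 1 array was left out. The median of the gene list: pituitary and hypothalamus markers was -0.215 in the matrix and -0.0319 to 0.156 when 1 array was left out, the lowest without 3 mg/kg streptozotocin, the median of astrocyte markers was 0.0685 in the centred matrix, and the difference of Pax9 was -0.0567 in the matrix. The cause of these changes was not tested. No paired analysis was possible because each group is 1 array. Slides are not given in the sources used here, so slide as a block could not be fitted. Dim genes are limited by signal over background, and for the 133 genes dim on the other arrays only a bound can be given.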

Other observations

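The higher genes below were not reached by the naming rule. They were picked after their values were seen and are no test of a theme, and of the 8 measured genes on the list of pituitary and hypothalamus markers none met the rule. On that list Oxt, the precursor of oxytocin, read 5.72 with scopolamine against 6.03 to 7.34. Igfbpl1, expressed in newborn neurons, read 7.83 with scopolamine and 6.08, 5.47, 5.85, and 5.93 with the lower and higher dose of Aβ and of streptozotocin. Ecel1, an endopeptidase of neurons, read 10.87 against 9.44, 9.46, 8.24, and 9.69. Magel2, an imprinted gene of the hypothalamus, read 8.76 against 7.92, 7.91, 6.46, and 7.86. All 3 were measured on all 5 arrays, and the scopolamine array was highest while that of 2.5 mg/kg streptozotocin was lowest for Ecel1 and Magel2. Ebf3, a transcription factor of developing neurons, read 8.58 against 5.89 to 7.57, and Dlk1, an imprinted ligand of the Notch family, 8.27 against 3.98 to 7.15. Trh, the precursor of thyrotropin-releasing hormone, read 7.25 against 4.96 to 5.82, and Six3, a factor of the anterior forebrain, 7.16 against 4.77 to 5.74, both measured on fewer than 4 of the other arrays. On the C57BL/6 arrays Trh ranged from 6.18 to 10.72 and Ecel1 from 8.22 to 12.36. Whether tissue next to the hippocampus took part in these values was not tested.

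Other bright members, also picked after their values were seen, have unrelated roles. Sln, the sarcolipin that regulates the calcium pump, read 10.74 with scopolamine and 8.62, 7.94, 7.82, and 9.14 on the others. Slc27a2, a fatty acid transporter, read 10.93 against 9.02, 10.22, 9.52, and 9.42. Dcxr, a reductase of dicarbonyls and xylulose, read 9.21 against 8.16, 8.25, 7.89, and 8.03. Scopolamine was the highest for each, and the nearest other array was a different one for Sln (3 mg/kg streptozotocin) than for Slc27a2 (10 μM Aβ) and Dcxr (10 μM Aβ). Among lower genes, Edn1, the vasoconstrictor endothelin, read 4.83 against 6.57, 6.89, 5.47, and 6.39, and Bgn, a proteoglycan of the matrix, 6.44 against 7.81, 7.78, 7.17, and 7.11.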
